A study of Mus musculus with 8 samples.

Results

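The genes described here are the deubiquitinase genes of mouse quadriceps muscle, taken as a family by their names. A gene of the deposited count table was a member if its symbol began with Usp, Uchl or Josd followed by a digit, or with Otub, Otud or Otul, or if it was Atxn3, Cyld, Bap1, Stambp, Stambpl1 or Brcc3, and if its counts summed to at least 80 over all 8 libraries. Of 53819 symbols, 84 matched by name and 67 were members. The member with the lowest sum was Otulinl (145 counts), and the highest below the limit was Usp27x (51). Of the 17 names left out, 10 had 0 counts, and Usp43 (48 counts), Uchl4 (27.1) and Otud7a (24) came next after Usp27x. By enzyme class the members were 46 ubiquitin-specific proteases (the Usp genes and Cyld), 10 OTU proteases, 4 ubiquitin C-terminal hydrolases (Uchl1, Uchl3, Uchl5 and Bap1), 3 Josephin proteases and 3 JAMM metalloproteases. Usp6nl fits the name rule but encodes a GTPase-activating protein and not a deubiquitinase. It was kept in the counts as the rule has it, with a log2 fold change of 0.16 ± 0.31 (SE).

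The study set wild-type C57BL/6J mice carrying the head and neck squamous cell carcinoma line B0092 against mice without a tumor, to characterise cachexia, the wasting that accompanies some tumors. In the tumor group, 4 mice that were 8 weeks old at the start received 500000 B0092 cells in 200 µL of phosphate-buffered saline under the skin of the nape. The 4 control mice were of the same strain and age and received the saline alone. Quadriceps was taken on day 36, when weight loss had reached about 10% per the series description, and each of the 8 libraries came from 1 mouse. The model is 1 tumor line at 1 time point, and the sex of the mice is not given in the sources used here.

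Ubiquitin is a small protein that is attached in chains to other proteins, and the chain type decides what follows, from breakdown by the proteasome to a change in signalling. Deubiquitinases cut ubiquitin off again: they trim and recycle chains at the proteasome, reverse signalling marks, and release ubiquitin from its precursors. In wasting muscle the ligases that attach ubiquitin are the better known side of the system, and Usp2, Usp14, Usp19 and Cyld are among the deubiquitinases studied in atrophy or muscle cell differentiation.

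Libraries held 28436254 to 36139478 counts, and levels below are in CPM, counts scaled to one library size with the TMM factors of edgeR. The 8 general markers of skeletal muscle summed to between 89072 and 181480 CPM in tumor libraries and to between 114559 and 180571 in controls. Of 8 squamous epithelium markers, Krt5, Krt14, Krt6a, Krt17 and Dsg3 were at 0 counts in all 8 libraries, although the labels name the carcinoma line for every library. The summed level of that list was 17.4 to 38.3 CPM in tumor libraries and 7.38 to 10.6 CPM in controls, and of its 2 tested genes Trp63 rose. Tumor library 2 and control library 4 stood apart in fibre type: Myh4, the myosin of the fastest fibres, made up 80.3% and 64.6% of the summed level of Myh1, Myh2, Myh4 and Myh7 there, against 95.2% to 98.9% in the other tumor libraries and 88.5% to 98.0% in the other controls. The edgeR tests and the ratios of related genes were also computed without both. Summed levels, levels per kilobase, and the overlap, order and spread of libraries were computed with all 8 only. Endothelial markers were lower in tumor libraries (4 of 6 fell, summed level 69.6 to 121 CPM against 135 to 210 CPM in controls). Leukocyte markers summed to 16.4 to 71.5 CPM in tumor libraries and 22.2 to 35.3 CPM in controls, and 0 of 6 passed. Of these, Cd68 had 32.96 CPM in tumor library 4, against 3.21 to 7.81 CPM in the other tumor libraries. Fibro-adipogenic markers summed to 176 to 357 CPM in tumor libraries and 329 to 452 CPM in controls, and 1 of 6, Col1a2, fell. Adipocyte markers reached a sum of 740 CPM in tumor libraries and 844 CPM in controls, and 0 of 6 passed. The part of these cell types in the results on deubiquitinase genes was not tested. In whole muscle, fewer cells of a type and less RNA per cell cannot be told apart.

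Most deubiquitinase genes (51 of 67) did not pass the test, and those that passed were nearly all higher in tumor-bearing mice. Among the 67 members, 15 rose and 1, Usp12, fell (edgeR quasi-likelihood test, Benjamini-Hochberg adjusted p under 0.05 over 14070 genes). The rises ran from 1.35-fold for Otud7b to 2.03-fold for Otulin. The share called was 23.9% of members, against 19.8% of all tested genes, so the number of calls as such was near the background. By direction, 22.4% of members rose and 1.49% fell, against 11.0% and 8.73% of all tested genes. A log2 fold change above 0 was found in 50 of 67 members (74.6%), against 50.2% of all genes, and the median was 0.24, against 0.00 over all genes. All 67 members passed the count filter, so no member is missing from these counts. With no count filter 10 members rose and 1 fell, beside 1213 and 1130 of all 25972 genes. With upper-quartile scaling 11 members rose and 1 fell, beside 1169 and 1547 of all 14070 genes. Of all called genes 43.0% were then higher, against 55.8% with TMM scaling. The sizes were modest: 1 of the 16 called members reached 2-fold, against 32.5% of all called genes.

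These counts depended on single libraries. With 1 of control library 1, control library 2 and tumor library 3 left out, 4 members rose. Over the whole table, 630 of 14327, 760 of 14335 and 708 of 14342 genes then rose. The share of all genes called in either direction was 7.75%, 9.58% and 8.30%. Without control library 3, 8 members rose, beside 1004 of 14362 genes. Without control library 4 it was 9, beside 1287 of 14359 genes. Without control library 4 and tumor library 2 together, 11 members rose and 0 fell, beside 1491 and 1431 of 14136 genes. Of those 11, 8 were among the 16 called with all libraries. The median log2 fold change of the members stayed between 0.16 and 0.25 in all 17 alternative fits. Otud5, Usp39, Usp16 and Usp2 passed in each of the 17.

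**Figure D1:**
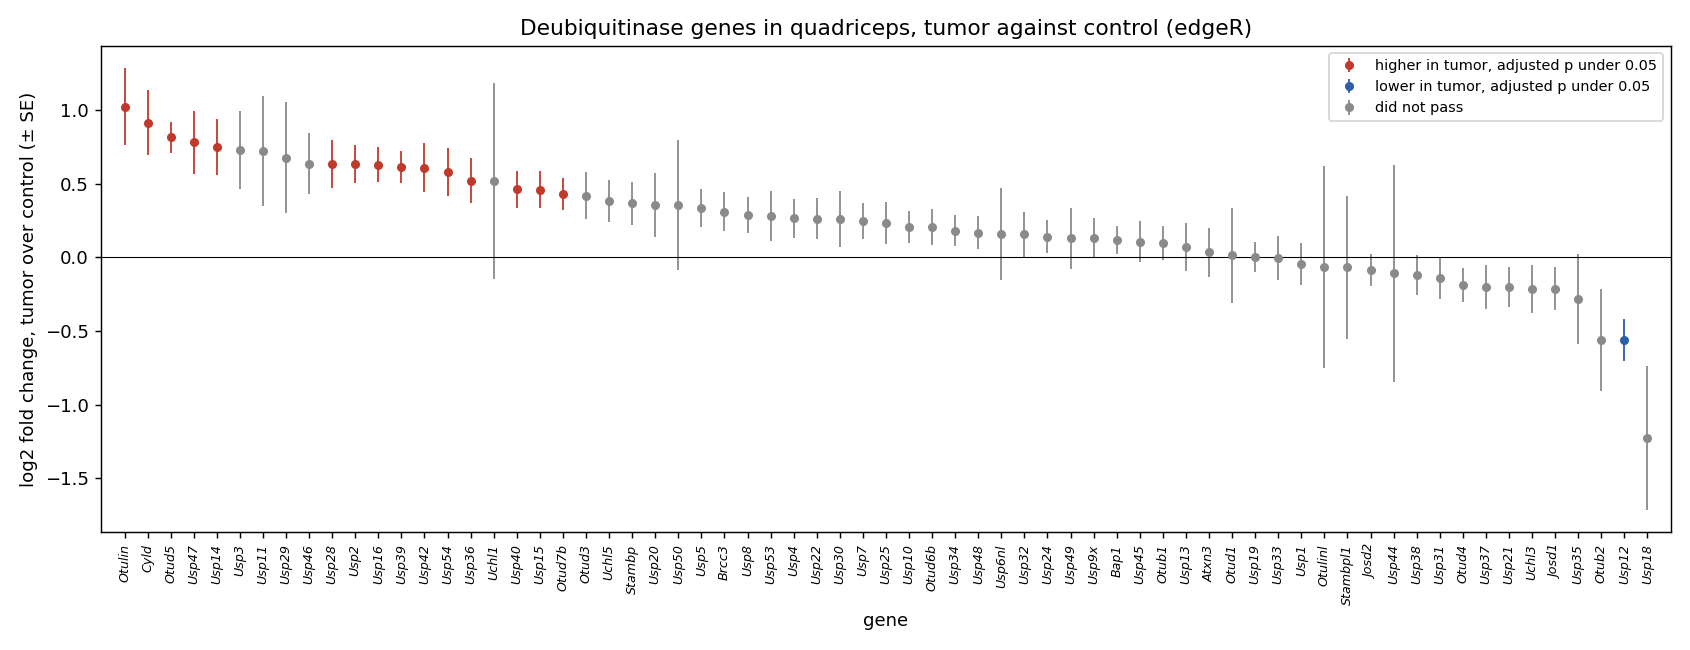
Log2 fold change of each of the 67 genes, tumor over control, with its SE from edgeR (n = 4 mice a group), in order of size along the x axis. The 15 genes that rose are red and lie between 0.43 and 1.02, Usp12 (-0.56) is blue, and the 51 that did not pass are grey.

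The rise with the smallest p was that of Otud5, an OTU protease known as a regulator of innate immune signalling and of early development. Otud5 had 26.4, 29.8, 30.3 and 31.7 CPM in tumor libraries 1 to 4, against 15.5, 17.5, 16.6 and 17.5 CPM in control libraries 1 to 4. Every tumor library lay well above every control, and the spread was small in both groups (29.5 ± 2.25 and 16.8 ± 0.973 CPM, SD, n = 4 each). The log2 fold change was 0.82 ± 0.11 (SE), or 1.76-fold, with an adjusted p of 0.00351 (edgeR). Usp39, a catalytically inactive family member that acts in pre-mRNA splicing, had 23.6, 26.2, 28.7 and 30.1 CPM in tumor libraries, against 16.8, 18.6, 17.8 and 17.6 CPM in controls. It rose 1.53-fold (adjusted p = 0.00718, edgeR) with no overlap between groups. Usp16, which removes ubiquitin from histone H2A, had 80.2, 80.4, 93.5 and 104 CPM in tumor libraries, against 55.9, 58.7, 60.1 and 56.5 CPM in controls. The groups were again apart, and the rise was 1.55-fold (adjusted p = 0.00806, edgeR). Of its exon bases 5.99% are shared with Cct8 on the other strand, whose log2 fold change was 0.13 ± 0.12.

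Usp2, an enzyme tied to the circadian clock, was the fourth gene to pass in every alternative fit. It had 199, 198, 186 and 216 CPM in tumor libraries, against 119, 123, 118 and 156 CPM in controls, so that the highest control (library 4) stood apart from the other 3 yet stayed below every tumor library. The log2 fold change was 0.63 ± 0.13 (SE, adjusted p = 0.0108, edgeR).

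The start regions of 4 members are printed below because the results turn on them: Otud5 for the smallest p, Cyld for its letters of an NF-kB site, and the related genes Usp12 and Usp46 as the related pair whose ratio is described further on. Each is 300 bases, 250 before to 50 after the annotated start, 5′ to 3′ in the direction of the gene, from RefSeq on build GRCm38.p6, which is not the build of the count table. They lie at chrX:7841581-7841880 (plus strand, the first of its 2 listed starts), chr8:88696778-88697077 (plus), chr5:146794907-146795206 (minus) and chr5:74068362-74068661 (minus), each spanning the annotated start of its gene. Capitals mark matches, on either strand, to any of 8 motifs: the E-box CACGTG, the FOXO site GTAAACA, the NF-kB site (its usual 10-base form), the CCAAT box, the GC box GGGCGG, the ETS site CCGGAAG, the NRF1 site (by its usual palindromic form) and the cyclic AMP element TGACGTCA. Neighbouring GC boxes can overlap.
Otud5: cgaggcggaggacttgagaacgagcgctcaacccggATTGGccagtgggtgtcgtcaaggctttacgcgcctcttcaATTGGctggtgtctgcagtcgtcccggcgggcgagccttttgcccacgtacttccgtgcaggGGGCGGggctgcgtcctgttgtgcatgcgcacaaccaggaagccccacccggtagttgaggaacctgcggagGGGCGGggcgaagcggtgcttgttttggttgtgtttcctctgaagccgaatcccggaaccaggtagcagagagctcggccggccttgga
Cyld: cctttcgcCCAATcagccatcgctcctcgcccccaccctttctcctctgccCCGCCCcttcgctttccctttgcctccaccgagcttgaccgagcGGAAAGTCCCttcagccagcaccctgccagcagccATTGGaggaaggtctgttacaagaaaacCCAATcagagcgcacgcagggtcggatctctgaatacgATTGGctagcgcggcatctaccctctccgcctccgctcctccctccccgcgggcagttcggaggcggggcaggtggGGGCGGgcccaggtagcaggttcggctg
Usp12: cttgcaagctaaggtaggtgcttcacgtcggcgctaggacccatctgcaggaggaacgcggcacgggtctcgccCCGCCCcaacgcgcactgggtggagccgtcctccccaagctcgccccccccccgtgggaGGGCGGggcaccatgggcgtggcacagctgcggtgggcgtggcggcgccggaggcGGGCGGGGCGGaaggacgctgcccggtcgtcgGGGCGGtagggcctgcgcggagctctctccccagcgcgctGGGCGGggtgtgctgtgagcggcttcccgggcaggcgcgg
Usp46: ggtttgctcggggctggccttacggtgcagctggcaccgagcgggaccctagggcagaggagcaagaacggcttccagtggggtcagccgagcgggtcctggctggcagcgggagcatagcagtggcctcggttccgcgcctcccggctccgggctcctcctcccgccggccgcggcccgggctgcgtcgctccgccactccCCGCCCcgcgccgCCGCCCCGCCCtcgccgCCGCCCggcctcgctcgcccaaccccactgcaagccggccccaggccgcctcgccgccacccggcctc
The Otud5 window held 2 CCAAT boxes and 2 GC boxes, and that of Cyld 4 CCAAT boxes, 2 GC boxes and 1 NF-kB site. Usp12 and Usp46 both held GC boxes and no other motif of the 8, with 6 matches in Usp12 and 4 in Usp46. A start region was at hand for 54 of the 67 members. A GC box was present in 40 of them (74.1%), against 35.7% of all 32851 listed start regions. The 2 sets are unlike: each member gave its first listed start only. The 32851 hold every listed start, with no limit to genes with counts in this muscle. The FOXO letters were in 2 of 54 (3.7%, against 3.65% of all) and in 0 of the 11 at hand for members that rose. An E-box was in 10 of 54 (18.5%, against 7.15%) and in 1 of those 11. The NF-kB letters were in 1 of 54, that of Cyld, and in 0.155% of all start regions. A CCAAT box was in 13 of 54 (24.1%, against 37.4%) and an ETS site in 10 of 54 (18.5%, against 8.86%). An NRF1 site was in 4 of 54 (7.41%, against 4.6%) and a cyclic AMP element in 1 of 54 (1.85%, against 1.79%). These matches describe letters only.

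Of the 7 tested members on a list for NF-kB, innate immune and ISG15 signalling, 4 rose (Cyld, Otulin, Otud7b and Otud5) and 0 fell. Of all members 22.4% rose and of all genes 11.0%, and the median log2 fold change of the 7 was 0.43. The list was drawn up with earlier results of these data known, so its share is a description only. Cyld removes chains joined through lysine 63 or head to tail and restrains NF-kB, and had 43.9, 63.7, 85.1 and 83.8 CPM in tumor libraries, against 29.7, 32.1, 42.8 and 42.1 CPM in controls. The lowest tumor library, number 1, was close to the highest control. The rise was 1.89-fold (log2 fold change 0.92 ± 0.22, edgeR adjusted p = 0.0206), and the call was lost without control library 1 or 2 or tumor library 3 (range of adjusted p 0.0638 to 0.071). Otulin, which cuts only head-to-tail chains, showed the largest rise of all members (2.03-fold, adjusted p = 0.026, edgeR) and also a wide spread. It had 12.5, 19.2, 22.5 and 30.1 CPM in tumor libraries, against 10.1, 9.83, 7.78 and 13.8 CPM in controls. Tumor library 1 lay below control library 4, so the groups overlapped, and the call was lost without control library 1, 2 or 3 or tumor library 3 or 4 (range of adjusted p 0.0513 to 0.0775). Otud7b (Cezanne) had 108, 118, 115 and 104 CPM in tumor libraries, against 74.9, 79.0, 86.1 and 89.6 CPM in controls, a rise of 1.35-fold with no overlap (adjusted p = 0.0236, edgeR). Its call was lost without control library 1 or 2 or tumor library 3 (range of adjusted p 0.0757 to 0.0876), and with no count filter (adjusted p = 0.0622).

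Other members with roles in immune signalling did not pass. Usp18, which removes the ubiquitin-like protein ISG15 and is an interferon-stimulated gene, had 1.05, 0.325, 0.514 and 0.890 CPM in tumor libraries, against 1.46, 1.49, 2.81 and 0.761 CPM in controls. At this low level the log2 fold change was -1.23 ± 0.49 (adjusted p = 0.104, edgeR). It passed with the log2 ratio of Myh4 to the other myosins as a covariate (adjusted p = 0.0189), and in no other alternative that tested it. None of the 4 genes of the ISG15 system that were tested passed either, with Isg15 itself at a log2 fold change of -0.94 ± 0.58. Otub1 lay at 0.10 ± 0.12 and its relative Otub2 at -0.56 ± 0.35. Otulinl, a relative of Otulin without known activity, was near the detection limit (0.563 ± 0.336 CPM in tumor mice and 0.587 ± 0.337 CPM in controls, SD, n = 4 each).

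Of the members bound to the proteasome, Usp14 rose and Uchl5 did not pass. Usp14 trims chains on substrates held at the proteasome, and had 40.6, 69.8, 51.8 and 65.0 CPM in tumor libraries, against 31.99, 30.8, 43.2 and 29.0 CPM in controls. Tumor library 1 overlapped with control library 3. The rise was 1.68-fold (log2 fold change 0.75 ± 0.19, edgeR adjusted p = 0.0261), and it did not pass without control library 1, 2 or 4 or tumor library 2, 3 or 4 (range of adjusted p 0.0513 to 0.0815), nor without control library 4 and tumor library 2 together (adjusted p = 0.0762). Of the annotated exon bases of Usp14, 45.9% are shared with Thoc1 on the opposite strand, and Thoc1 also rose (log2 fold change 0.54 ± 0.10, adjusted p = 0.00869, edgeR). The strand setting of the counting is not given in the sources used here. Whether reads of the 2 genes were told apart in the shared part is therefore unknown, and the value of Usp14 is uncertain. Uchl5 had 18.5, 21.2, 24.4 and 28.2 CPM in tumor libraries, against 18.0, 16.3, 19.1 and 17.3 CPM in controls (log2 fold change 0.38 ± 0.14, adjusted p = 0.086, edgeR). It passed without tumor library 1 (adjusted p = 0.0359), whose value lay within the controls. Its anchor on the proteasome, Adrm1, rose 2.26-fold. On a separate list of genes of the proteasome's regulatory particle all 16 rose (median 1.00 on the log2 scale), where 11.0% of all genes rose. The third deubiquitinase of the proteasome, Psmd14, is also a subunit of that particle but was not on this list. Psmd14 is outside the name rule and lay just short of the threshold (0.65 ± 0.21, adjusted p = 0.0518, edgeR). It passed without tumor library 1 (adjusted p = 0.0126), with DESeq2, with a stricter count filter and with the Myh4 covariate.

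Usp47 was the most abundant member and accounted for a large part of the family's change in level. It is best known in base excision repair and in signalling downstream of growth factors. Usp47 had 593, 699, 812 and 1208 CPM in tumor libraries, against 440.0, 469.8, 514 and 502 CPM in controls. All 4 tumor values were above the controls, but tumor library 4 was far above the other 3. The rise was 1.72-fold (log2 fold change 0.78 ± 0.22, edgeR adjusted p = 0.0328) and was not called without control library 1, 2, 3 or 4 or tumor library 3 (range of adjusted p 0.0569 to 0.101). Summed over the 67 members, the mean level was 4183 CPM in tumor mice and 3303 CPM in controls. The sum lay between 3806 and 4515 CPM in tumor libraries and between 3144 and 3483 CPM in controls, so the groups did not overlap. Usp47 made up 39.4% of the difference of 880.4 CPM, Usp2 8.08% and Usp15 7.31%. The ratio of the summed means was 1.27 with Usp47 and 1.19 without it.

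Levels of different genes were compared per kilobase of transcript, using the mean length of the annotated coding transcripts. On this scale Usp47 (155 CPM per kb in tumor mice and 90.0 in controls), Usp13 (94.0 and 89.4) and Usp2 (84.0 and 54.1) led, followed by Usp25 (36.7 and 31.1). In controls Usp47 and Usp13 were thus level with each other. In tumor mice Usp47 was ahead, though its spread between mice was wide. At the other end, Usp44, Stambpl1 and Otulinl averaged under 1 CPM in both groups, before division by length, and 8 members averaged over 100 CPM in both.

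**Figure D2:**
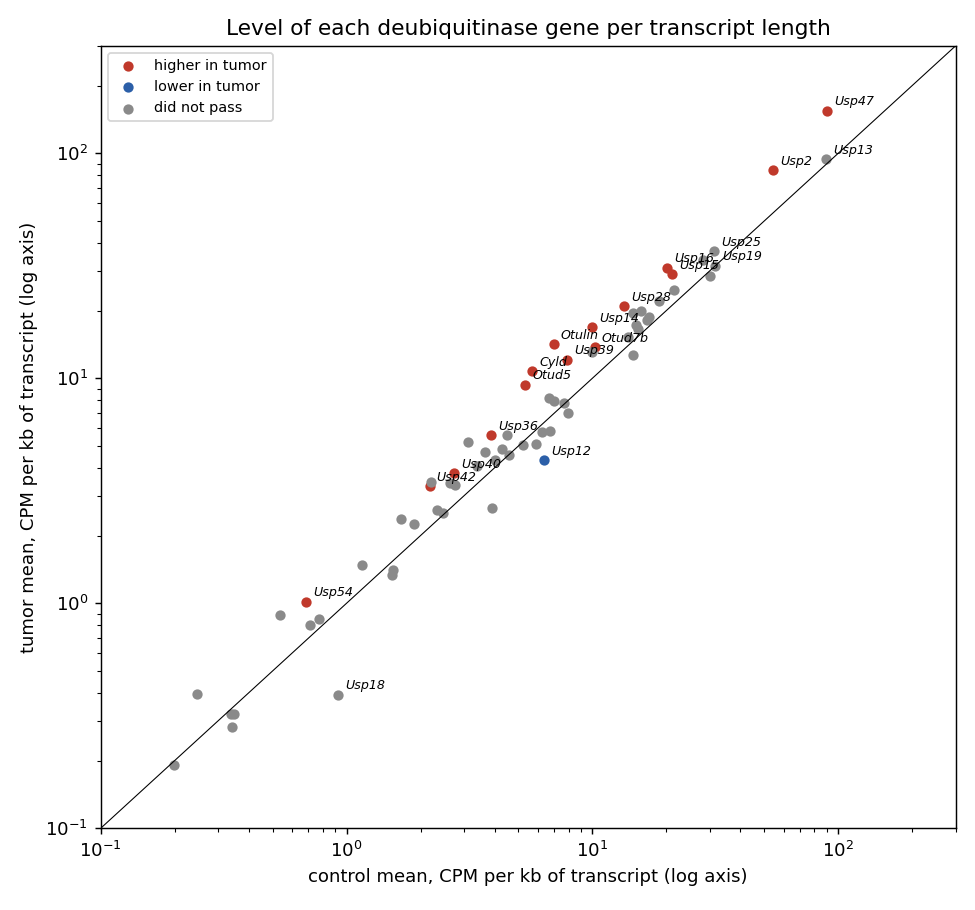
Mean level of each of the 67 genes in tumor mice (y axis) and control mice (x axis), in CPM per kilobase of transcript on log axes, with the line of equal levels. The 15 genes that rose (red) lie above the line, Usp12 (blue) below it, and Usp47, Usp13 and Usp2 are the 3 highest.

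Among the remaining rises, Usp28 and Usp15 averaged over 50 CPM in both groups. Usp15 belongs, with Usp39, Usp36 and Usp4, to a list of 4 members with roles in splicing or the nucleolus. Of these 3 rose, where 22.4% of all members and 11.0% of all genes rose. This list was drawn up with earlier results of these data known, so its share is a description only. Usp28, which stabilises Myc and acts in the DNA damage response, had 65.2, 88.3, 81.1 and 111 CPM in tumor libraries, against 52.7, 55.5, 63.0 and 50.7 CPM in controls. The groups did not overlap and the rise was 1.56-fold (adjusted p = 0.0254, edgeR). It was not called without control library 1, 2 or 4 or tumor library 3 (range of adjusted p 0.0552 to 0.0814), nor without control library 4 and tumor library 2 together (adjusted p = 0.0628). Usp15, which acts on TGF-beta receptors and SMADs and opposes Parkin in mitophagy, had 196, 223, 261 and 262 CPM in tumor libraries, against 165, 181, 167 and 171 CPM in controls. It rose 1.38-fold with no overlap (adjusted p = 0.0339, edgeR) and was not called without control library 1, 2, 3 or 4 or tumor library 3 or 4 (range of adjusted p 0.0614 to 0.106), nor with upper-quartile scaling (adjusted p = 0.059), with no count filter (adjusted p = 0.081), or without control library 4 and tumor library 2 together (adjusted p = 0.0542).

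A further 4 rises were in genes of lower level, and in each the highest value was that of tumor library 2. Usp36, a nucleolar enzyme needed for ribosome production, had 30.6, 39.0, 32.8 and 23.4 CPM in tumor libraries, against 22.6, 23.8, 21.3 and 19.9 CPM in controls. Tumor library 4 lay below control library 2. Its relative Usp42, linked to p53, had 18.2, 20.4, 18.0 and 11.8 CPM in tumor libraries, against 10.7, 10.4, 11.3 and 12.4 CPM in controls, and again tumor library 4 lay within the controls. The adjusted p was 0.0415 for Usp36 and 0.033 for Usp42 (edgeR). Usp40 had 16.0, 19.0, 17.2 and 16.1 CPM in tumor libraries, against 11.9, 13.4, 10.4 and 13.8 CPM in controls. Usp54 had 6.55, 8.15, 5.65 and 6.26 CPM in tumor libraries, against 4.35, 4.83, 4.28 and 4.35 CPM in controls. Both were apart between groups (adjusted p = 0.0313 for Usp40 and adjusted p = 0.0357 for Usp54, edgeR). All 4 genes lost their call without control library 1, 2 or 3 or tumor library 2 or 3, Usp36, Usp42 and Usp54 also without tumor library 1, and Usp36 and Usp54 also without control library 4 (range of adjusted p 0.0543 to 0.107 over these fits). With upper-quartile scaling Usp36 (adjusted p = 0.0672), Usp40 (adjusted p = 0.05004) and Usp54 (adjusted p = 0.0558) were not called. With no count filter the values were 0.0624 for Usp36, 0.0679 for Usp40 and 0.0839 for Usp54 (adjusted p, edgeR), and limma-voom gave 0.0502 for Usp36. Without control library 4 and tumor library 2 together, the adjusted p was 0.13 for Usp36, 0.0513 for Usp40, 0.0621 for Usp42 and 0.0962 for Usp54.

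The mouse with the highest value thus differed among the rises. Tumor library 4 was highest for 8 of the 15 (Otud5, Usp39, Usp16, Usp2, Usp28, Otulin, Usp47 and Usp15), tumor library 2 for 6 (Otud7b, Usp14, Usp40, Usp42, Usp54 and Usp36) and tumor library 3 for Cyld. Tumor library 1 was highest for 0 and lowest for 10. Over all 1552 genes that rose, tumor library 4 was highest in 34.7%, tumor library 2 in 35.8% and tumor library 3 in 24.9%, and tumor library 1 was lowest in 51.9%. The spread between mice on the log2 scale was larger in tumor than in control libraries for 49 of 67 members (73.1%), against 66.5% of all genes.

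**Figure D3:**
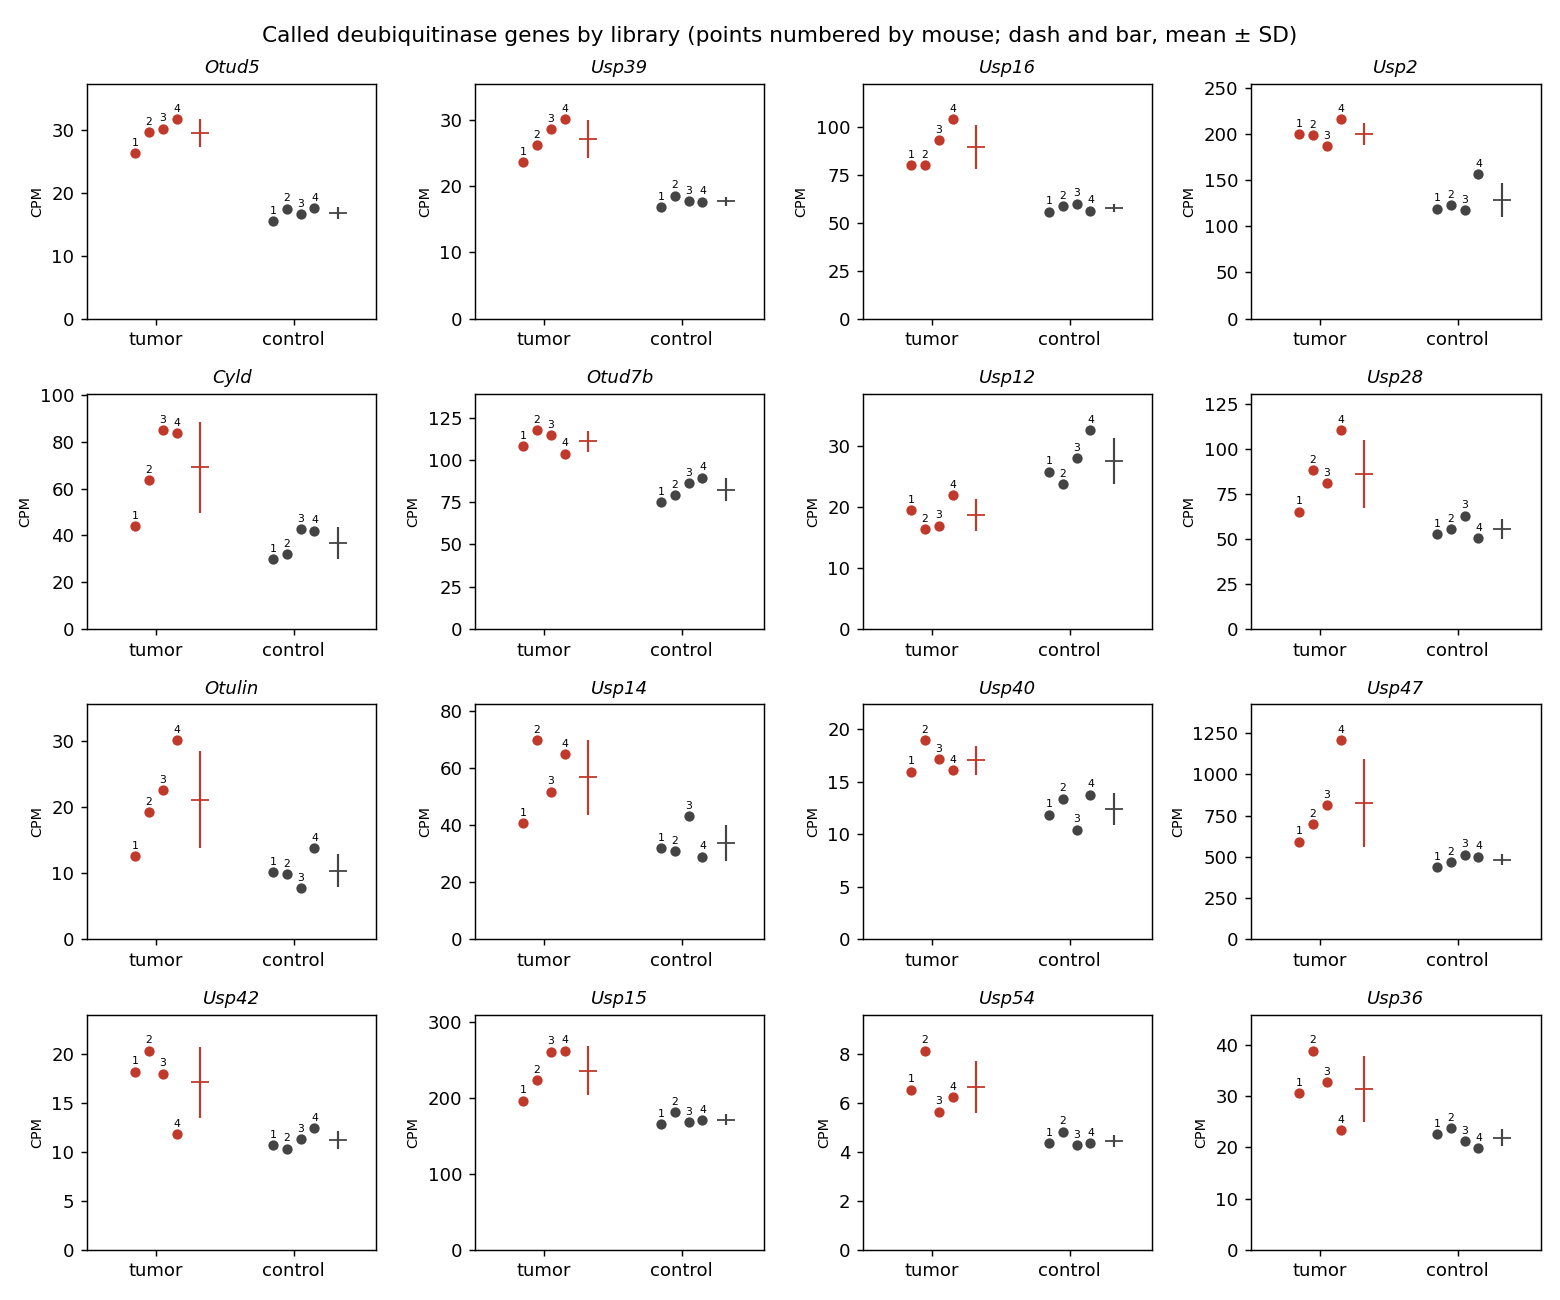
CPM of the 16 called genes in each library (linear axes from 0, points numbered by mouse within a group, dash and bar for mean ± SD, n = 4). Every tumor point is above every control point for 11 of the 15 genes that rose, and below every control point for Usp12. Otulin, Usp14, Usp42 and Usp36 overlap.

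Usp12 was the only member called lower, and its closest relative Usp46 had a log2 fold change above 0. Both encode enzymes that are switched on by the cofactor Wdr48. Usp12 had 19.5, 16.3, 16.9 and 21.99 CPM in tumor libraries, against 25.8, 23.8, 28.04 and 32.6 CPM in controls. All tumor values were below all controls, a 1.48-fold fall (log2 fold change -0.56 ± 0.14, edgeR adjusted p = 0.0244). The call was lost without control library 1, 3 or 4 or tumor library 3 (range of adjusted p 0.052 to 0.081), and without control library 4 and tumor library 2 together (adjusted p = 0.0594). Usp46 had 15.9, 10.5, 20.3 and 17.5 CPM in tumor libraries, against 9.82, 12.9, 8.97 and 9.46 CPM in controls, with tumor library 2 inside the controls. Its log2 fold change of 0.64 ± 0.21 lay just short of the threshold (adjusted p = 0.0549, edgeR) and passed with DESeq2, without tumor library 2, and without control library 4 and tumor library 2. Wdr48 itself lay at 0.13 ± 0.12.

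The log2 ratio of Usp12 to Usp46 was 0.29, 0.64, -0.26 and 0.33 in tumor libraries, against 1.39, 0.88, 1.64 and 1.78 in controls. Every tumor ratio lay below every control ratio. The ratio was lower by 1.17 in tumor mice on the log2 scale (0.25 ± 0.37 against 1.42 ± 0.40, SD, n = 4 each), with an exact two-sided permutation p of 0.0286, the smallest that 4 against 4 can give. Such ratios were tested for 18 pairs of related enzymes, the other 3 of 21 pairs listed having a gene that was no member. Only Usp12/Usp46 and Usp2/Usp21 reached 0.0286, and the Benjamini-Hochberg adjusted p over the 18 was 0.257 for both, so neither passed the correction. With 0.0286 as the smallest possible p, 2 pairs alone could not pass it, so the correction does not decide on them.

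The Usp2 to Usp21 ratio had no overlap either, at 3.93 ± 0.13 in tumor mice and 3.10 ± 0.26 in controls (difference 0.83), Usp21 having a log2 fold change of -0.20 ± 0.13. For Usp16 and its relative Usp45 the difference was 0.51 (exact permutation p = 0.0571), Usp45 lying at 0.11 ± 0.14. For Usp47 and Usp7 it was 0.49 (exact permutation p = 0.0571), and 0.21 without tumor library 4. Usp15 and its relatives Usp4 and Usp11 showed differences of -0.19 for Usp4/Usp15 and 0.10 for Usp11/Usp15 (exact permutation p = 0.229 and exact permutation p = 0.8). Usp25 and Usp28 gave -0.39 (exact permutation p = 0.229), so the rise of Usp28 was not shown to differ from the value of Usp25. Usp36 and Usp42, which both rose, gave -0.08 (exact permutation p = 0.543).

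**Figure D4:**
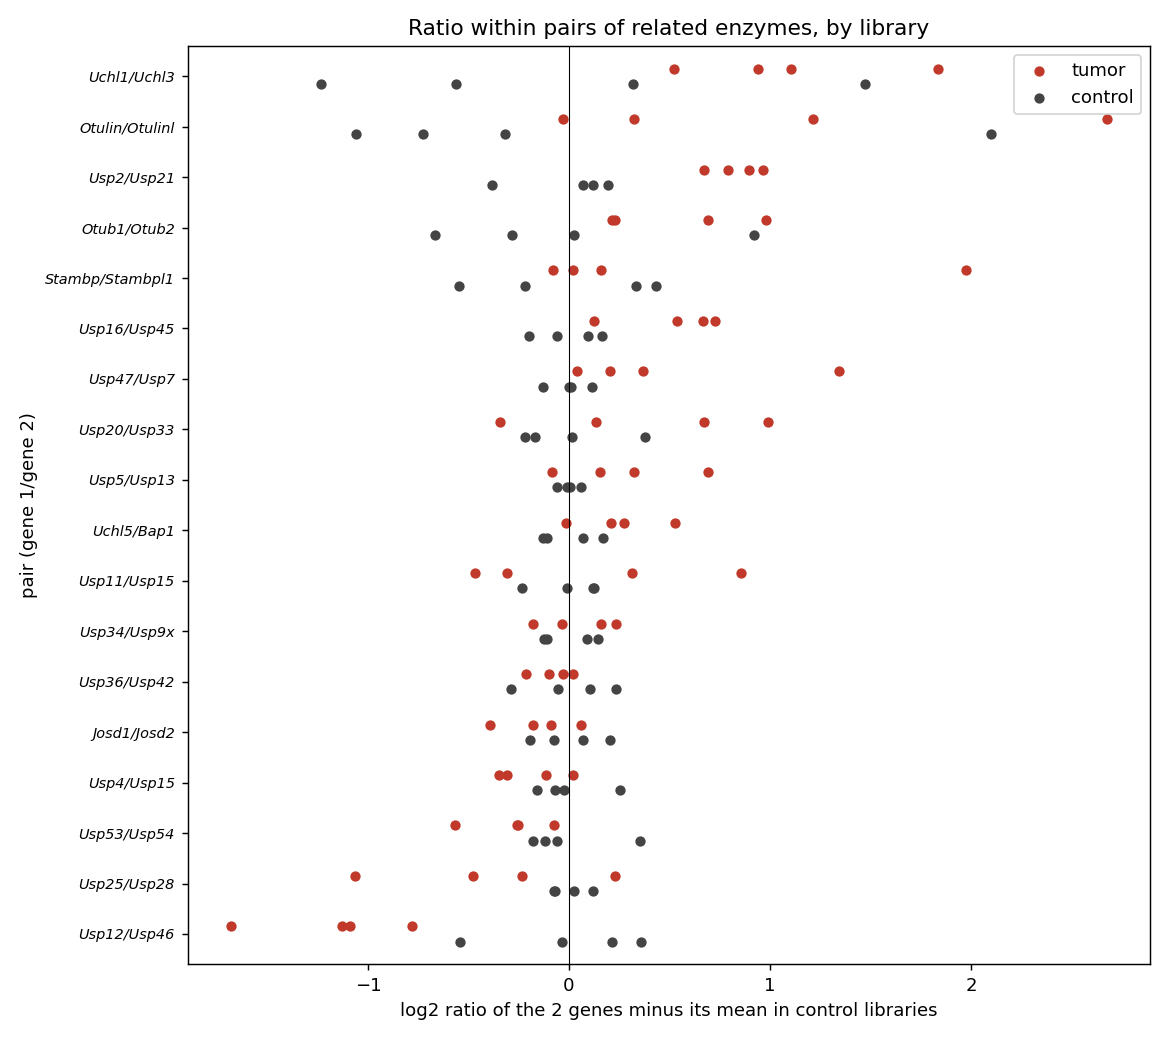
Log2 ratio of the 2 genes of each of 18 related pairs in each library, minus the mean ratio of that pair in controls (x axis), with tumor points above control points in each row. Groups do not overlap for Usp12/Usp46 (tumor mean lower by 1.17) and Usp2/Usp21 (higher by 0.83).

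On a list of 7 members named in the literature on muscle atrophy or muscle differentiation, 4 rose (Usp2, Usp14, Usp28 and Cyld) and 0 fell. Of all members 22.4% rose, and of all genes 11.0%, but the list was drawn up with earlier results of these data known. Usp19, Usp25 and Usp1 on this list did not pass. Usp19, which has been tied to loss of myofibrillar protein, had 150.1, 150.0, 136 and 140.2 CPM in tumor libraries, against 151, 141, 146 and 137 CPM in controls. The groups overlapped throughout, and the log2 fold change was 0.00 ± 0.10 with an approximate interval from -0.19 to 0.20 (about 2 SE either side). The sign turned with DESeq2 size factors and with upper-quartile scaling. Usp13, the second most abundant member and a relative of Usp5, had 506, 611, 441 and 386 CPM in tumor libraries, against 448, 464, 505 and 431 CPM in controls. The lowest and the highest value were both in tumor libraries, and its log2 fold change of 0.07 ± 0.16 turned negative with upper-quartile scaling. Usp5, which recycles free ubiquitin chains, lay at 0.34 ± 0.13 (adjusted p = 0.0905, edgeR) and passed without tumor library 1 (adjusted p = 0.0351). Usp25, whose gene yields a muscle isoform, had 204, 170, 185 and 142 CPM in tumor libraries, against 143, 162, 160 and 129 CPM in controls (adjusted p = 0.27, edgeR). Usp1 lay at -0.05 ± 0.14.

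The other classes held no call. Of the ubiquitin C-terminal hydrolases, Uchl3 had a log2 fold change of -0.21 ± 0.16, and Bap1, the nuclear enzyme that acts on histone H2A, 0.12 ± 0.10. Uchl1, an abundant enzyme of nerve that is also found in slow muscle fibres, had 2.80, 1.92, 1.64 and 4.82 CPM in tumor libraries, against 1.43, 0.496, 0.839 and 5.07 CPM in controls. The highest control was library 4, the library with the lowest share of Myh4. Without that library and tumor library 2 the log2 fold change was 1.74 (adjusted p = 0.0411, edgeR), against 0.52 ± 0.66 (adjusted p = 0.616) with all 8. Uchl1 passed in no other alternative, and among them its log2 fold change was as low as 0.11. Nerve and Schwann cell markers summed to 17.8 to 53.1 CPM in tumor libraries and to 22.9 to 56.9 CPM in controls, with 0 of 6 tested passing. Their part in the values of Uchl1 was not tested. The Josephin genes Atxn3, Josd1 and Josd2 lay at 0.04 ± 0.17, -0.21 ± 0.15 and -0.08 ± 0.11, and the value of Atxn3 turned negative with upper-quartile scaling. Of the JAMM genes, Stambp, which acts on endosomes, was higher in every tumor library than in any control (7.57 ± 1.06 against 5.87 ± 0.344 CPM, SD, n = 4 each) but did not pass (0.37 ± 0.15, adjusted p = 0.111, edgeR). Brcc3 lay at 0.31 ± 0.13 (adjusted p = 0.123) and passed without tumor library 1 (adjusted p = 0.0332), and Stambpl1 lay at -0.07 ± 0.48.

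On the role lists not given so far, 1 of 7 tested members rose for histone deubiquitination and 1 of 6 for DNA damage and p53. For mitochondria and mitophagy it was 1 of 4, and for the cell cycle and for protein quality control 0 of 4 each. For endosomal sorting it was 0 of 3 and for polyubiquitin recycling 0 of 2. Of all members 22.4% rose and of all genes 11.0%, and lists this short cannot set a role apart from those shares. The remaining members can be given by role, each with its log2 fold change and SE. The large and well-expressed enzymes Usp9x (0.13 ± 0.14), Usp24 (0.14 ± 0.11), Usp34 (0.18 ± 0.11) and Usp7 (0.25 ± 0.12) all lay a little above 0, and Usp9x lay marginally below it without control library 4 and tumor library 2. Usp7 stabilises Mdm2 and p53, and Usp9x acts on many substrates in trafficking and growth signalling. Usp4 and Usp11, relatives of Usp15, lay at 0.27 ± 0.13 and 0.72 ± 0.37, the SE of Usp11 being wide. Usp22, the enzyme of the SAGA complex, lay at 0.26 ± 0.14. The mitochondrial Usp30, and Usp35 and Usp8, which also have roles in mitophagy, lay at 0.26 ± 0.19, -0.28 ± 0.31 and 0.29 ± 0.12. Among the enzymes with roles in the cell cycle or DNA repair, the values were Usp37 (-0.20 ± 0.15), Usp44 (-0.11 ± 0.74), Usp45 (0.11 ± 0.14) and Usp48 (0.17 ± 0.11). Usp10, which acts on p53 and stress granule proteins, lay at 0.21 ± 0.11. The paralogs Usp20 (0.36 ± 0.22) and Usp33 (-0.01 ± 0.15), which act on adrenergic receptors, did not pass either. The OTU genes outside the calls were Otud1 (0.01 ± 0.32), Otud3 (0.42 ± 0.16), Otud4 (-0.19 ± 0.12) and Otud6b (0.21 ± 0.12), of which Otud3 passed without tumor library 2, alone or with control library 4. The remaining Usp genes were Usp29 (0.68 ± 0.38), Usp31 (-0.14 ± 0.14), Usp32 (0.16 ± 0.15), Usp38 (-0.12 ± 0.13), Usp49 (0.13 ± 0.21), Usp50 (0.36 ± 0.44) and Usp53 (0.28 ± 0.17).

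Among all 51 members that did not pass, 35 had a log2 fold change above 0 and 16 below. It ran from -1.23 (Usp18) to 0.73 (Usp3), and in 31 it was within 0.25 of 0. An unadjusted p under 0.05 was found for 9 of them, 8 higher and 1 lower. Usp3, a histone deubiquitinase, was highest in tumor library 2, where it had 29.7 CPM, beside 14.7, 14.6 and 12.4 CPM in the other tumor libraries and 8.98 to 12.6 CPM in controls. It passed with DESeq2 and with the Myh4 covariate. Groups without overlap were found for 15 of 67 members (22.4%), against 25.0% of all genes. They were 12 called genes and Stambp, Usp10 and Usp48. Exons of another gene overlap those of 17 members, and cover over 10% of exon bases in Uchl1, Usp14, Usp29, Usp33, Usp34, Usp38 and Usp49. Values of these are less certain.

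A list of 16 genes outside the name rule, called the other deubiquitinases below, was also tested. Some on it, such as Cops5, Eif3f and Mpnd, are not chiefly known as deubiquitinases. Of the 16, 3 rose and 1 fell, which is near the 19.8% called over all genes, and their median log2 fold change was 0.22. Zranb1 (TRABID), which cuts atypical chains, had 245, 198, 264 and 153 CPM in tumor libraries, against 89.4, 108, 121 and 113 CPM in controls, a 1.99-fold rise (adjusted p = 0.00788, edgeR). Cops5, the catalytic subunit of the COP9 signalosome, rose 1.57-fold and the translation initiation subunit Eif3f 1.48-fold. Both were lost without control library 1 or tumor library 3, Cops5 also without control library 2 and Eif3f also without control library 3 (range of adjusted p 0.0516 to 0.0703). Mpnd, a JAMM-domain gene, fell 1.82-fold, with 27.1, 20.5, 21.4 and 25.8 CPM in tumor libraries, against 44.5, 46.4, 44.0 and 37.8 CPM in controls (adjusted p = 0.00399, edgeR).

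Of 30 partners and complex subunits of deubiquitinases, 6 rose and 1 fell, a share close to the 19.8% called over all genes, and their median log2 fold change was 0.10. The largest change was that of Hgs, the endosomal sorting protein that works with the Stambp- and Usp8-binding STAM proteins. Hgs had 68.7, 174, 146 and 170.3 CPM in tumor libraries, against 23.4, 25.6, 27.3 and 34.5 CPM in controls. Its rise of 5.04-fold (log2 fold change 2.33 ± 0.28, edgeR adjusted p = 0.00271) stood beside log2 fold changes of 0.37 ± 0.15 for Stambp and 0.29 ± 0.12 for Usp8, which did not pass. Of the 5 listed partners of Bap1, Foxk1 and Asxl1 rose, while Asxl2 (0.31 ± 0.10, adjusted p = 0.0538, edgeR), Hcfc1 (-0.08 ± 0.13) and Foxk2 (-0.01 ± 0.12) did not pass. Foxk1 had 79.3, 79.5, 98.3 and 65.9 CPM in tumor libraries, against 33.5, 40.9, 43.3 and 43.7 CPM in controls (2.00-fold, adjusted p = 0.00399, edgeR), and Asxl1 rose 1.95-fold (adjusted p = 0.00508, edgeR). Abraxas2, the scaffold of the Brcc3 complex in the cytosol, rose 1.55-fold. Eny2, of the histone deubiquitinase module of SAGA, rose 1.37-fold (adjusted p = 0.0451) but was not called without control library 1, 2, 3 or 4 or tumor library 2, 3 or 4 (range of adjusted p 0.0592 to 0.109), nor with upper-quartile scaling, no count filter, limma-voom, the Myh4 covariate, or control library 4 and tumor library 2 left out together (range of adjusted p 0.0503 to 0.111). Atxn7l1, a relative of another subunit of that module, fell 1.85-fold (adjusted p = 0.00355, edgeR). Ubb, a gene for ubiquitin itself, rose 2.04-fold and was not called without control library 1 (adjusted p = 0.0524).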

How the data were processed

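RNA of quadriceps from 4 tumor-bearing and 4 control mice was made into mRNA libraries and sequenced, per the labels' protocols. The authors deposited 1 table of estimated counts per gene symbol, of which 9.00% of values were not whole. The submitters' processing notes name Trim Galore 0.6.7, cutadapt 3.4, STAR 2.7.9a, Salmon 1.10.1, R 4.2.2 and build GRCm39. The sources used here do not give the annotation or the strand setting. All 8 columns were matched to samples by library name, 0 belonged to no sample, and each library was counted as 1 replicate, since differences between replicates exceeded sampling noise. Replicates were taken as separate mice.

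Counts were rounded and genes filtered with filterByExpr (minimum count 10), which left 14070 of 53819 symbols and 99.92% of counts. They were scaled by TMM and tested, tumor over control, with the quasi-likelihood test of edgeR 4.0.16 in R 4.3.3, with no covariate and Benjamini-Hochberg adjustment over all tested genes (threshold 0.05). The SE was obtained as the size of the log2 fold change over the root of its F statistic. CPM values use TMM library sizes, and depth limits the precision of the lowest genes. Transcript lengths and exon overlaps came from GENCODE M21, matched by symbol, and start regions from RefSeq on GRCm38.p6. Log2 ratios of related genes were compared by exact two-sided permutation over all 70 arrangements of the group labels, adjusted over 18 pairs.

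The genes named were every called member, a list of members chosen by role, the 5 members with the highest level per kilobase, and up to 4 genes of each other list by smallest p. Members named besides these, given to account for every member, were chosen after their values were seen. The members and lists were chosen with earlier results of these data known. Alternatives were DESeq2 1.42.0 (test and size factors), limma-voom 3.58.1, upper-quartile scaling, no filter, a stricter filter, the replicate number as a block, a Myh4 ratio covariate, leaving out control library 4 with tumor library 2, and leaving out each library. The tests were tried on simulated data first.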

Additional observations from a re-analysis of the deposited data

Results flagged for a closer look

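Among 40 named deubiquitinase genes, each group of 4 libraries was examined for a single library far from the other 3 (a gap, as a share of the group's range, past Dixon's critical value). Of 80 groups, 3 held one, and chance gives about 1 in 20. Usp10 had 69.2 CPM in tumor library 4, against 57.0 to 58.6 CPM in the other tumor libraries. Usp2 had 156 CPM in control library 4, against 118 to 123 CPM in the other controls. Usp54 had 4.83 CPM in control library 2, against 4.28 to 4.35 CPM in the other controls.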

How the results depend on the processing

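The median log2 fold change of the deubiquitinase genes and the count of partners that rose kept their direction and size under every alternative run. Other counts moved. The labels name no pairing of tumor with control mice. Deviations of same-numbered libraries had correlations of 0.03, 0.13, 0.20 and 0.02, and those of differently numbered libraries ran from -0.31 to 0.15. So few values cannot decide whether the numbers pair the mice. With the replicate block, 1014 of all genes and 8 deubiquitinase genes rose, against 1552 and 15 without it, and 1 of the other deubiquitinases rose, against 3. Leaving out each library gave 630 to 1551 genes higher, 480 to 1450 lower, 4 to 15 deubiquitinase genes higher, 0 to 1 lower, 1 to 4 other deubiquitinases higher, 1 to 2 lower, and 1 to 2 partners lower. Without control library 4 and tumor library 2, 0 deubiquitinase genes, 2 other deubiquitinases and 2 partners fell, beside 1431 of 14136 genes. With the Myh4 covariate 2 deubiquitinase genes fell and 5 other deubiquitinases rose, beside 1381 and 1651 of all 14070 genes. DESeq2 gave 5 other deubiquitinases higher and 3 lower, beside 1931 and 1728 of all 14070 genes. Upper-quartile scaling and the stricter filter each gave 2 lower, beside 1547 of 14070 and 1340 of 11160 genes. The causes were not tested.

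Several log2 fold changes near 0 turned sign, and none of these was called. Without control library 4 and tumor library 2 the values were -0.0044 for Usp9x, -0.0956 for Usp13, -0.0448 for Usp19, 0.0069 for Uchl3, -0.0578 for Atxn3, 0.32 for Stambpl1 and -0.0387 for the ratio of Stambp to Stambpl1. Upper-quartile scaling gave -0.0060 for Usp13, -0.0717 for Usp19 and -0.0420 for Atxn3. For Usp19, DESeq2 size factors gave -2.81e-06, the DESeq2 test -5.34e-05, no count filter -0.0053 and the stricter filter -0.0173. Over the fits without 1 library, Usp1 ranged from -0.13 to 0.0246, Usp13 from -0.0872 to 0.16, Usp19 from -0.0454 to 0.0333, Atxn3 from -0.0860 to 0.13, Stambpl1 from -0.25 to 0.19, Usp11/Usp15 from -0.15 to 0.29 and Usp34/Usp9x from -0.0170 to 0.12. Depth limits Stambpl1, Otulinl and Usp44 most. The replicate block ended the calls of Otud7b, Usp14, Usp15, Usp28, Usp40, Usp42 and Usp54, and of Eif3f, Cops5 and Eny2.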
